A study of Homo sapiens with 9 samples.

Results

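AXIN2 and 9 further genes that report on the Wnt pathway (LEF1, TCF7, SP5, DKK1, NKD1, LGR5, RNF43, CTNNB1 and FZD7) were followed on the arrays of this series. Every probe that carried one of these names and was not a control probe was kept, which gave 13 probes of 10 genes among 42405 probes. Of these, 11 probes of 8 genes were bright enough to be tested, among 29134 tested probes. AXIN2 had been selected on its lower signal with paraoxon in these same arrays, so its differences are given as a description with no test, and the question was whether the other genes moved with it.

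RNA came from hNT2 cells, a human embryonal carcinoma line that acquires neuronal properties in retinoic acid. All cultures, controls included, received differentiation medium with 10 µM retinoic acid for 4 days. Control cultures received nothing else, paraoxon cultures 1 µM of this organophosphate and mipafox cultures 5 µM of this organophosphorus compound, so the doses of both compounds differed. Each treatment had 3 arrays (A, B and C, 96 h) in 1 cell line, and the arrays lay on 2 slides: controls A, B and C with mipafox A on slide 1, and paraoxon A, B and C with mipafox B and C on slide 2. Paraoxon and control therefore shared no slide, and mipafox was the treatment present on both, so a slide term in the fit rested on the mipafox arrays. Signals are given as normalized log2 signal, which is the log2 of a probe's processed intensity minus the 75th percentile of its array. A probe is compared with itself across arrays, not with another probe. The cells matched their label in the defining markers: the 8 pluripotency genes examined, POU5F1 and NANOG among them, were well above background on all 9 arrays, as were 8 of 9 genes of the retinoic acid response. Of 5 mesoderm markers, T and EOMES were well above background on 0 arrays, while MESP1 was on 9, TBX6 on 7 and MIXL1 on 6. Of 5 endoderm markers, FOXA2 and GATA6 were well above background on 9 arrays, GATA4 on 4, and AFP and SOX17 on 1 each. Also well above background on all 9 arrays were 4 of 5 fibroblast markers and 4 of 5 neural progenitor markers (SOX1 was on 1). So were 4 of 7 neuron markers (SYP was on 6, ELAVL3 on 4 and STMN2 on 2) and 2 of 3 trophoblast markers (CGA was on 2). A lower signal cannot be told apart here as less RNA per cell or as fewer cells that make it.

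In canonical Wnt signalling a secreted Wnt ligand binds a Frizzled receptor and an LRP co-receptor, and β-catenin, the product of CTNNB1, then escapes degradation and enters the nucleus. There it joins TCF and LEF proteins on target promoters. AXIN2, a scaffold of the degradation complex, is itself a direct target and is widely read as a measure of the pathway. In differentiating embryonal carcinoma cells, Wnt signals are known for their part in the choice between self-renewal and lineage entry.

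The probe sequences are shown first because AXIN2, TCF7 and CTNNB1 each had a pair of probes at different places of the transcript, and the members of a pair did not move alike. The upstream probe of AXIN2, A_24_P298027, lay at base 580 of the annotated transcript (chr17:63554388-63554447, hg19, minus strand). The downstream probe, A_23_P148015, lay at base 3466 (chr17:63525389-63525448, minus strand). The upstream probe of TCF7, A_33_P3250671, lay at base 1047 (chr5:133478508-133478567, plus strand) and the downstream probe, A_23_P7582, at base 2593 (chr5:133483237-133483296). For CTNNB1, A_33_P3421695 lay at chr3:41280687-41280746 and A_23_P29495 at chr3:41281749-41281808, both on the plus strand. Exons were not annotated here. The upstream probes are given whole, with all 60 bases, and the downstream probes by their first 30 bases, each 5′ to 3′ in the sense of the transcript and with no base singled out in capitals.
AXIN2 A_24_P298027: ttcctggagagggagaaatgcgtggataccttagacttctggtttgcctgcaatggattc
AXIN2 A_23_P148015: ttttgtcttaaaggtcttgagggttgacca
TCF7 A_33_P3250671: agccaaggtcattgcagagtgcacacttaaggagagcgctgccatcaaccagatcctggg
TCF7 A_23_P7582: cccagaaaacctccagtagtggacaacagg
CTNNB1 A_33_P3421695: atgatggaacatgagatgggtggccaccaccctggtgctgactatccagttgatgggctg
CTNNB1 A_23_P29495: tgatcaaaaactatttgggatatgtatggg

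AXIN2 was lower with both compounds at its upstream probe and nearly level at its downstream probe. At A_24_P298027 the normalized log2 signal was -2.19, -2.50 and -2.85 on controls A, B and C. It was -3.85, -4.05 and -3.81 with paraoxon and -2.97, -3.99 and -4.50 with mipafox. All paraoxon arrays and all mipafox arrays lay below the lowest control, and mipafox A was the array closest to the controls. The group means were -2.51 ± 0.33 (SD, n = 3) in control, -3.91 ± 0.13 with paraoxon and -3.82 ± 0.78 with mipafox. The difference from control was -1.39 (SE 0.34), a 2.62-fold lower signal, with paraoxon. With mipafox it was -1.31 (SE 0.34), a 2.47-fold lower signal. With slide as a fixed block in the fit these differences were -0.12 (SE 0.38) with paraoxon and -0.46 (SE 0.30) with mipafox.

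The same values also divided by slide. On slide 1 the upstream AXIN2 probe ranged from -2.97 to -2.19 and on slide 2 from -4.50 to -3.81, with no overlap. Within slide 1, mipafox A differed from the control mean by -0.46. Within slide 2, the paraoxon arrays lay 0.34 above mipafox B and C. Between the slides and within mipafox, arrays B and C differed from array A by -1.27, which is close to the difference between paraoxon and control. The fixed block takes the slide difference from the mipafox arrays alone, 1 on slide 1 and 2 on slide 2. The upstream probe was printed as 1 spot per array, was well above background on 9 of 9 arrays and carried no repeat spot within an array to compare.

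At the downstream AXIN2 probe, A_23_P148015, the signal was -0.63, -0.30 and -0.15 on the controls. It was -0.25, 0.07 and -1.13 with paraoxon and -0.70, -0.61 and -0.36 with mipafox. The 3 treatments overlapped, and the highest and the lowest of the 9 arrays were both paraoxon arrays. The difference from control was -0.08 (SE 0.28) with paraoxon and -0.20 (SE 0.28) with mipafox. This probe had 2 spots on each array, whose SD within an array had a median of 0.056 and reached 0.116, so the low value of paraoxon C was not a disagreement between its spots. Without 1 array at a time, the downstream difference with paraoxon ran from -0.33 to 0.27, the latter without paraoxon C, and so had no settled direction. Across the 9 arrays the Pearson correlation between both AXIN2 probes was -0.08, given as a description over arrays that share slides.

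**Figure D1:**
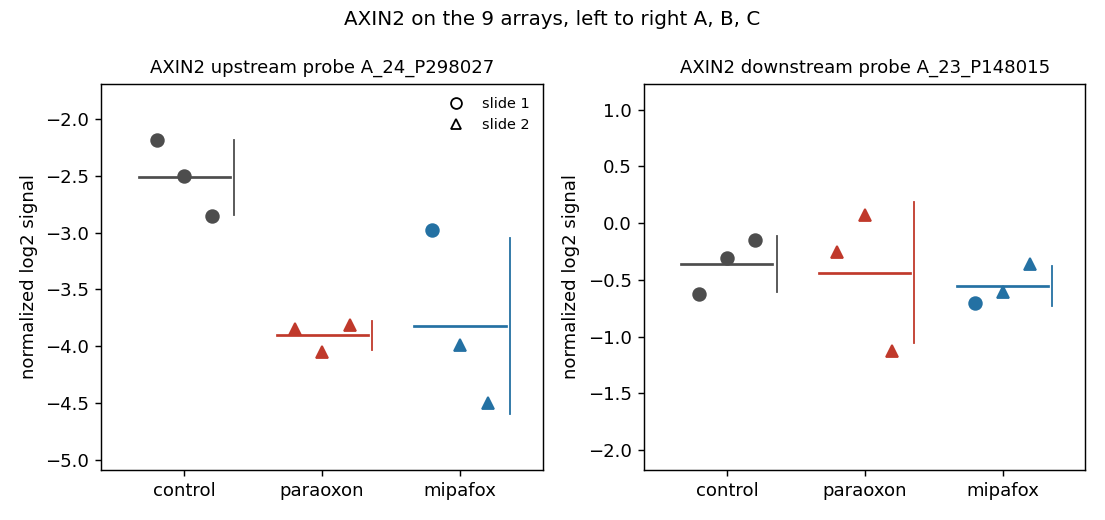
Normalized log2 signal of the upstream (left) and downstream (right) AXIN2 probe on 9 arrays by treatment, with circles for slide 1 and triangles for slide 2, a horizontal line at the mean and a vertical line of ±1 SD (n = 3). Upstream, all slide 2 arrays sit between -4.50 and -3.81 and all slide 1 arrays between -2.97 and -2.19, whereas downstream the treatments overlap; both vertical axes span the same log2 range.

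SP5 encodes a zinc finger transcription factor and is among the genes most directly switched on by β-catenin. The 250 bases before its start in RefSeq (chr2:170715087-170715336, GRCh38.p14, plus strand) are printed to show the kind of site on which TCF and LEF proteins act, with the 6-base core CTTTGA or its reverse complement TCAAAG in capitals.
SP5 promoter: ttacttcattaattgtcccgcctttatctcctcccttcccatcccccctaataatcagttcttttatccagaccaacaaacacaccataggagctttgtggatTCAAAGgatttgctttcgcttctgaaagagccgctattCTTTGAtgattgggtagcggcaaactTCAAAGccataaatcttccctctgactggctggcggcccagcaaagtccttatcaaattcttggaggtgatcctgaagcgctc
The core occurred 3 times in this window, and at least once in 11.2% of all 35116 RefSeq windows of that length searched on both strands. The table held entries for 6 of the 10 genes. The DKK1 window held 2 copies, while these letters were not in the windows of CTNNB1, LEF1, TCF7 and RNF43, and AXIN2, NKD1, LGR5 and FZD7 had no entry.

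SP5 was the member other than AXIN2 with the largest mean decrease with mipafox among single-probe genes. Its signal was -5.57, -6.12 and -5.59 on the controls. It was -6.14, -6.02 and -6.18 with paraoxon and -6.22, -6.41 and -6.40 with mipafox. Control B lay among the paraoxon arrays, and all mipafox arrays lay below all controls. The difference was -0.58 (SE 0.17, unadjusted p = 0.00801, limma adjusted p = 0.492) with mipafox. With paraoxon it was -0.35 (SE 0.17, unadjusted p = 0.0692, adjusted p = 0.421). Mipafox A, on the slide of the controls, lay -0.46 from their mean. SP5 was dim and not well above background on paraoxon C. With another background correction (normexp) its difference was 0.04 with mipafox and -0.04 with paraoxon. The size of both differences, and the direction with mipafox, thus depended on that step.

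NKD1 and RNF43 are feedback inhibitors, the former binding Dishevelled and the latter removing Frizzled receptors from the membrane. Both were on average higher with either compound, opposite to the upstream AXIN2 probe. NKD1 was at -4.47, -4.92 and -4.50 on the controls, -4.42, -4.55 and -4.24 with paraoxon and -4.37, -4.21 and -4.19 with mipafox. All mipafox arrays lay above all controls, whereas the paraoxon arrays overlapped with them. The difference was 0.37 (SE 0.16, unadjusted p = 0.0492, limma adjusted p = 0.715) with mipafox and 0.22 (SE 0.16, adjusted p = 0.631) with paraoxon. RNF43 was at -1.21, -1.05 and -1.11 on the controls, -0.84, -0.91 and -0.79 with paraoxon and -0.95, -0.90 and -1.14 with mipafox. All paraoxon arrays lay above all controls and mipafox C lay among them. The RNF43 difference was 0.28 (SE 0.13, unadjusted p = 0.0606, adjusted p = 0.403) with paraoxon and 0.13 (SE 0.13, adjusted p = 0.926) with mipafox.

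DKK1, a secreted inhibitor that binds the LRP co-receptor, and LGR5, a receptor for R-spondins and a stem cell marker, gave no measurable level. DKK1 was well above background on 1 array, mipafox B, and LGR5 on 0 of 9 arrays. Neither was tested and no fold is given, since every treatment was at background on most or all of its arrays. The 2 DKK1 spots of an array differed with a median SD of 0.423, against 0.026 to 0.057 for the tested probes with repeat spots.

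TCF7 and LEF1 encode the DNA-binding partners of β-catenin and are targets of the pathway as well. The upstream TCF7 probe was at -3.86, -4.29 and -4.09 on the controls, -4.41, -4.70 and -4.86 with paraoxon and -4.26, -4.44 and -4.38 with mipafox. All paraoxon arrays lay below all controls, and mipafox A lay within the range of the controls. The difference was -0.58 (SE 0.17, unadjusted p = 0.00729, limma adjusted p = 0.178) with paraoxon and -0.28 (SE 0.17, adjusted p = 0.823) with mipafox. Like the upstream AXIN2 probe it divided by slide, with -4.29 to -3.86 on slide 1 and -4.86 to -4.38 on slide 2. The size of its differences depended on the processing. With normexp they were -0.23 (limma unadjusted p = 0.168) with paraoxon and -0.05 with mipafox. In the authors' deposited log2 values the paraoxon difference was -0.30 (limma unadjusted p = 0.00628), and with array weights -0.29 (limma unadjusted p = 0.0370).

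The downstream TCF7 probe, printed as 10 spots per array, stayed within a narrow range. It was at -0.65, -0.87 and -0.75 on the controls, -0.69, -0.75 and -0.81 with paraoxon and -0.67, -0.72 and -0.52 with mipafox, with the 3 treatments overlapping. Its difference was 0.01 (SE 0.13, adjusted p = 0.992) with paraoxon and 0.12 (SE 0.13, adjusted p = 0.933) with mipafox. LEF1 was at -1.76, -1.64 and -1.61 on the controls, -1.69, -1.35 and -1.74 with paraoxon and -1.53, -1.71 and -1.64 with mipafox. These overlapped too, and the LEF1 difference was 0.08 (SE 0.15, adjusted p = 0.886) with paraoxon and 0.04 (SE 0.15, adjusted p = 0.986) with mipafox. In the authors' deposited log2 values it was 0.24 with paraoxon and 0.21 with mipafox (limma unadjusted p = 0.0574 and 0.0944).

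At the entry of the pathway, FZD7, a Frizzled receptor abundant in pluripotent cells, was at 2.99, 3.42 and 3.27 on the controls, 3.22, 3.38 and 3.46 with paraoxon and 3.10, 3.11 and 3.20 with mipafox. All treatments overlapped with control, and the difference was 0.12 (SE 0.15, adjusted p = 0.807) with paraoxon and -0.09 (SE 0.15, adjusted p = 0.967) with mipafox. CTNNB1, whose product is regulated mainly as a protein, was at 3.10, 3.22 and 3.37 on the controls at its downstream probe, 2.73, 3.50 and 2.61 with paraoxon and 3.20, 2.87 and 3.80 with mipafox. The treated arrays lay on both sides of the controls, with a difference of -0.28 (SE 0.28, adjusted p = 0.751) with paraoxon and 0.06 (SE 0.28, adjusted p = 0.990) with mipafox. The upstream CTNNB1 probe was at 0.67, 0.06 and 0.10 on the controls, 0.16, -0.75 and 0.23 with paraoxon and 0.70, -0.02 and -1.80 with mipafox. Mipafox C was far below the other arrays there and the highest of the 9 at the downstream probe. The upstream difference was -0.39 (SE 0.56, adjusted p = 0.837) with paraoxon. With mipafox it was -0.65 (SE 0.56, adjusted p = 0.903), and 0.06 without mipafox C. With slide as a fixed block both upstream differences turned sign, to 1.22 with paraoxon and 0.43 with mipafox.

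**Figure D2:**
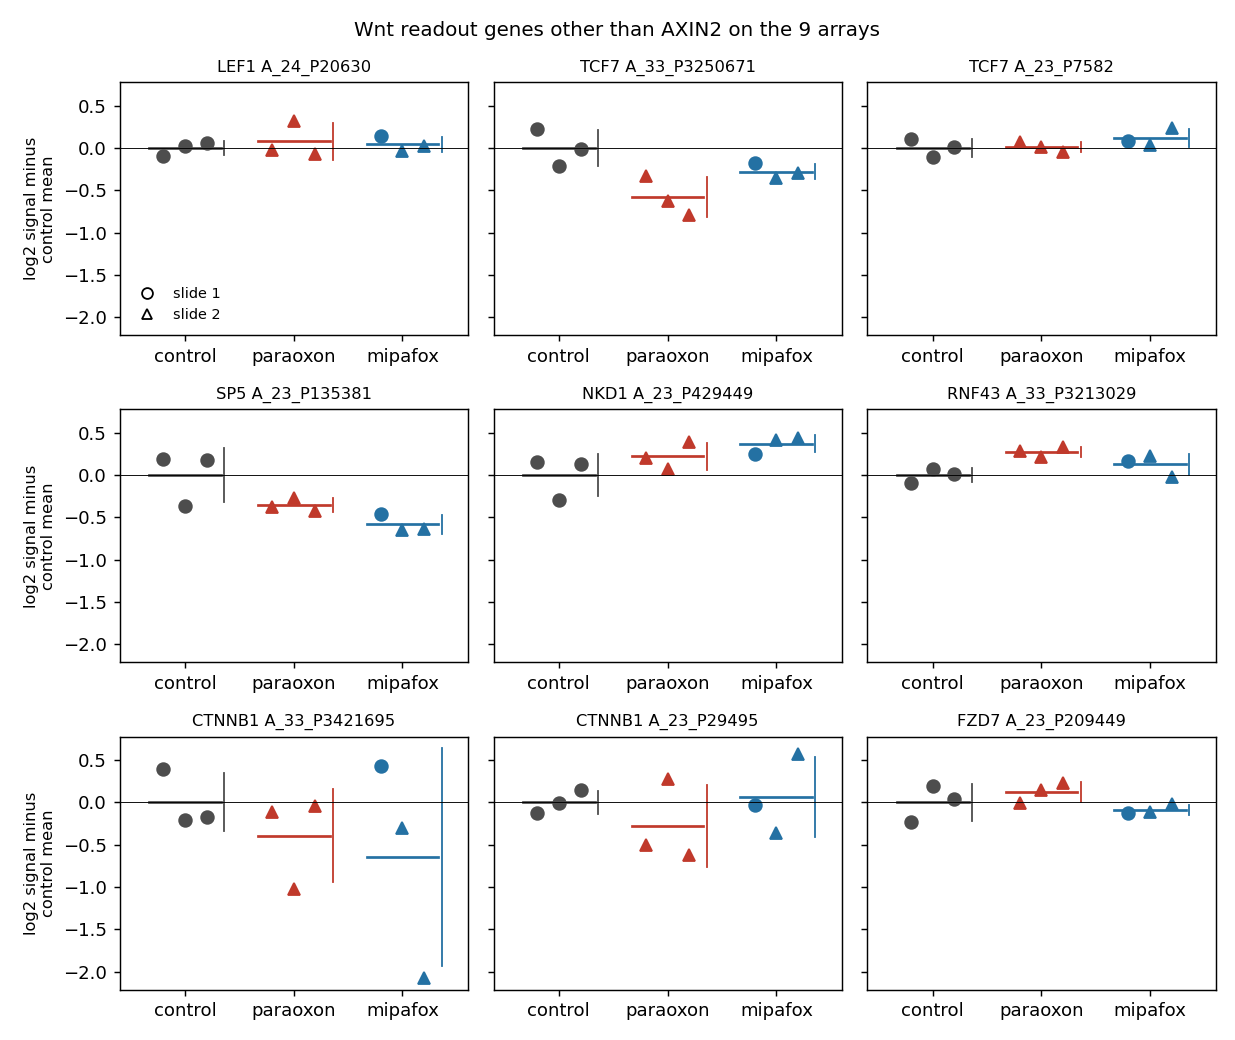
Log2 signal minus the control mean for the 9 tested probes of the genes other than AXIN2, by treatment, with circles for slide 1, triangles for slide 2, a horizontal line at the mean and a vertical line of ±1 SD (n = 3). The means of both treated groups lie below 0 for SP5 and the upstream TCF7 and CTNNB1 probes. They lie above 0 for NKD1 and RNF43 and, by less, for LEF1 and the downstream TCF7 probe. At the upstream CTNNB1 probe, mipafox C stands far below (-1.80 in normalized log2 signal).

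Set side by side, the other genes did not share a direction with the upstream AXIN2 probe. Over the 9 tested probes of the genes other than AXIN2, 5 were higher and 4 lower with paraoxon, and 5 were higher and 4 lower with mipafox, comparisons that share the 3 control arrays. The median difference was 0.01 with paraoxon and 0.04 with mipafox, beside 0.01 and 0.00 over all 29134 tested probes. None of the 9 had an adjusted p under 0.05 in limma, and 0% of all tested probes were called (adjusted p under 0.05 and a log2 difference beyond 1 in size) in any comparison. The smallest adjusted p over all probes was 0.0608 for paraoxon and 0.156 for mipafox. At an unadjusted p under 0.05, 1 of the 9 was lower with paraoxon (upstream TCF7), where 6.02% of all tested probes were lower, and 0 were higher, where 7.31% were. With mipafox 1 was lower (SP5) against 4% of all tested probes, and 1 was higher (NKD1) against 2.96%. With slide as a fixed block, 0 of the 9 had an unadjusted p under 0.05 in either comparison with control. Between the compounds, whose doses differed, 0 of the 9 had an unadjusted p under 0.05, against 4.02% of all tested probes in either direction. The arrays of both slides did not overlap at 1 of these 9 probes (upstream TCF7, lower on slide 2), against 9.78% of all tested probes in either direction and 4.93% in that direction.

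**Figure D3:**
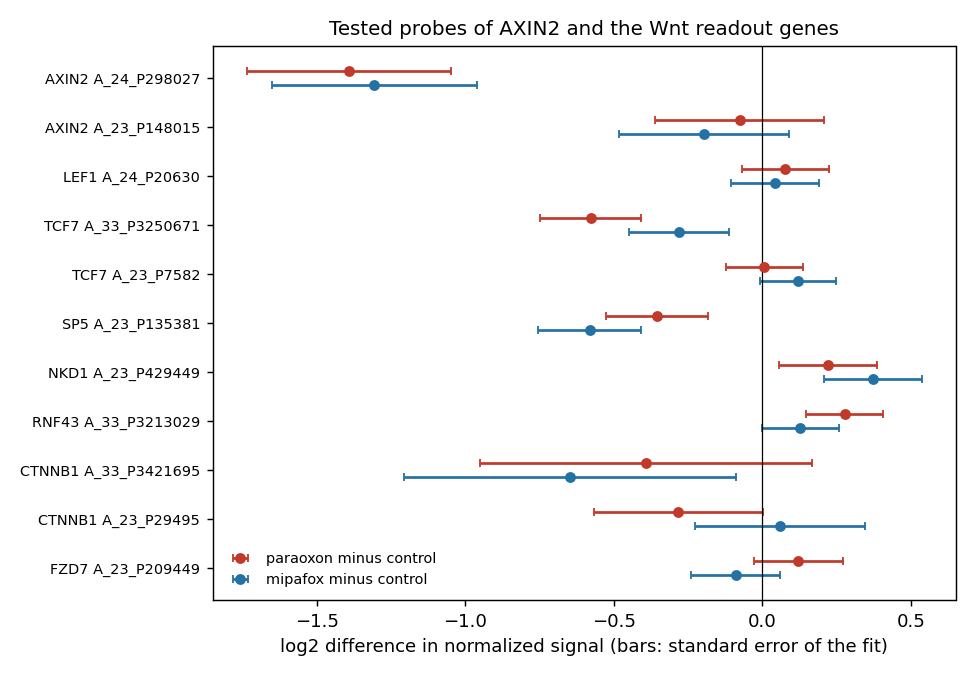
Log2 difference from control (horizontal axis) for the 11 tested probes, in red for paraoxon and in blue for mipafox, with bars of ±1 standard error from the limma fit of 9 arrays. The upstream AXIN2 probe lies at -1.39 and -1.31, away from the downstream AXIN2 probe at -0.08 and -0.20, and the probes of the other genes lie between -0.65 and 0.37.

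Because paired probes on AXIN2 and TCF7 disagreed, the disagreement was set beside that of all tested probe pairs on 1 transcript lying at least 1000 bases apart, a comparison chosen after the values were seen. For 1803 such pairs, AXIN2 and TCF7 included, the upstream difference minus the downstream difference had a median of -0.35 for paraoxon against control (5th to 95th percentile, -1.08 to 0.38), and 81.3% of pairs were below 0. The AXIN2 pair, 2886 bases apart, was at -1.32, where 33 pairs (1.83%, itself counted) lay as low or lower. The TCF7 pair, 1546 bases apart, was at -0.59, where 29.6% of pairs lay as low or lower. For mipafox against control the median was -0.25, with AXIN2 at -1.11 and TCF7 at -0.40. Among the 631 pairs at least as far apart as that of AXIN2 the median was -0.41 with paraoxon. An upstream difference below the downstream one was thus common to most pairs on these arrays, and the AXIN2 pair, whose upstream probe was selected for its decrease, lay in the lower tail.

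By array and relative to the control mean, the median upstream minus downstream signal was 0.13, -0.05 and -0.08 on controls A, B and C and -0.16 on mipafox A, all on slide 1. It was -0.24, -0.34 and -0.44 with paraoxon and -0.27 and -0.33 on mipafox B and C, all on slide 2. The 5 arrays of slide 2 were therefore the 5 lowest. For AXIN2 the same quantity was 0.59, -0.04 and -0.55 on the controls, -1.45, -1.97 and -0.54 with paraoxon and -0.12, -1.23 and -1.98 with mipafox. Paraoxon C overlapped with control C here, through its low downstream signal. For CTNNB1, whose probes are annotated to different transcript records, it was 0.52, -0.20 and -0.32 on the controls, 0.39, -1.29 and 0.57 with paraoxon and 0.46, 0.06 and -2.64 with mipafox. The part of this difference along transcripts in the AXIN2 values was not tested.

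**Figure D4:**
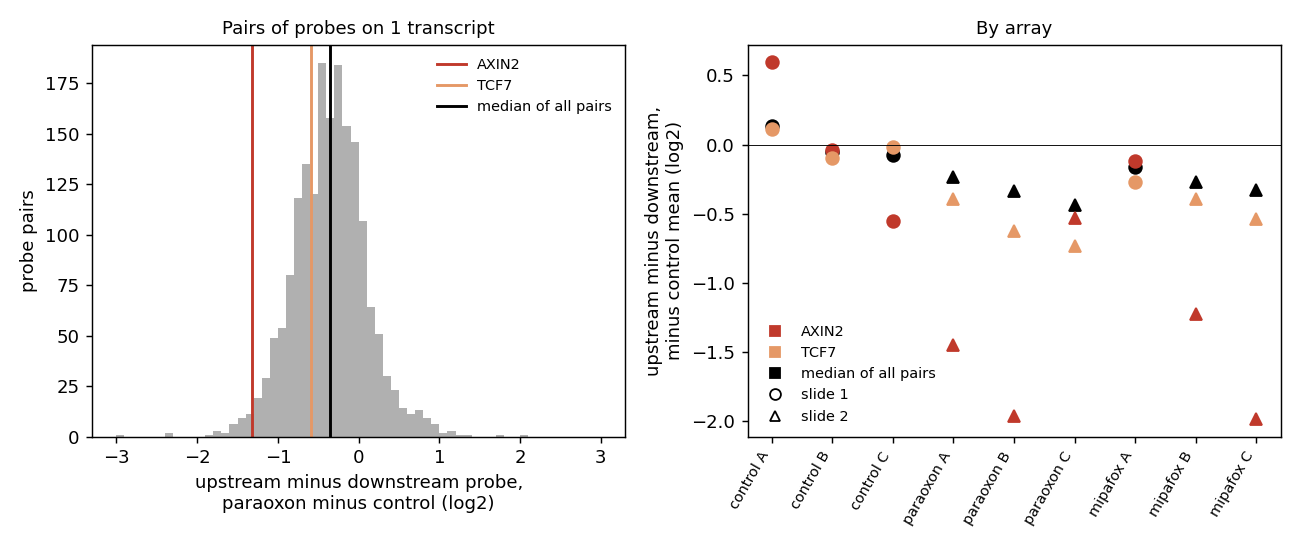
Left, number of probe pairs (vertical axis) by upstream minus downstream log2 difference for paraoxon minus control, with lines at the median of 1803 pairs (-0.35), TCF7 (-0.59) and AXIN2 (-1.32). Right, the same quantity on each array relative to the control mean, with circles for slide 1 and triangles for slide 2; the median of all pairs (black) is lowest on the 5 slide 2 arrays, from -0.44 to -0.24.

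The rest of the pathway was read from a list of 115 further gene symbols, of which 92 genes with 118 probes were tested. With paraoxon 13 of these probes were lower and 2 higher at an unadjusted p under 0.05 (11% and 1.69%, beside the 6.02% and 7.31% of all tested probes given above), and the median was -0.04. With mipafox 6 were lower and 4 higher (5.08% and 3.39%, beside 4% and 2.96% of all tested probes), with a median of 0.00. None reached an adjusted p under 0.05. Paraoxon and control shared no slide, so the paraoxon differences in the list cannot be told apart from a difference between slides. The largest group of lower probes was in the nucleus, where 6 of 24 probes were lower and 1 higher with paraoxon, and 3 lower and 2 higher with mipafox (25% and 4.17%, and 12.5% and 8.33%).

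Among these nuclear genes, BCL9, which bridges β-catenin to PYGO proteins, had the lowest difference with paraoxon. It was at -0.03, -0.45 and -0.71 on the controls, -1.33, -1.48 and -1.23 with paraoxon and -0.67, -1.19 and -1.21 with mipafox. All paraoxon arrays lay below all controls, with a difference of -0.95 (SE 0.21, unadjusted p = 0.0015, limma adjusted p = 0.103). Its relative BCL9L differed by -0.48 (adjusted p = 0.226) at A_33_P3405957 and by -0.17 (adjusted p = 0.877) at A_24_P134816, the latter 0.16 without paraoxon C. PYGO1, a partner of BCL9, differed by -0.86 (unadjusted p = 0.00108, adjusted p = 0.0966) at a probe at base 586 and by 0.17 (adjusted p = 0.726) at a probe at base 8351 of another transcript record. At its probe at base 586 the slides overlapped. TCF7L2, a TCF factor, differed by -0.90 (adjusted p = 0.316) with paraoxon and by -1.16 (unadjusted p = 0.0095) with mipafox at A_33_P3377304, the lowest nuclear value with mipafox, which was -0.75 without mipafox A. At its probes at bases 1440 and 2544 of another record it differed by -0.23 and 0.33 with paraoxon (adjusted p = 0.897 and 0.626), which ran from -0.74 to 0.21 and from 0.13 to 0.43 when 1 array was left out. With mipafox it differed there by 0.18 and 0.63 (limma unadjusted p = 0.725 and 0.0253). The former was -0.07 without mipafox A, and the latter was the highest value of the list with mipafox. TCF7L1, mostly a repressor among the TCF factors, differed by -0.35 with paraoxon (adjusted p = 0.642), and by -0.05 without paraoxon B. The co-repressor TLE1 differed by -0.49 (adjusted p = 0.230) at A_23_P135239 and by -0.45 at A_33_P3217719 (-0.22 without paraoxon C), whereas its relative TLE2 was 0.38 above control (adjusted p = 0.317).

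In the cytoplasm, genes of the destruction complex lay on both sides of 0 with paraoxon and none passed the adjusted test. APC differed by -0.64 (unadjusted p = 0.0113, adjusted p = 0.212) with paraoxon and by -0.88 (unadjusted p = 0.0018) with mipafox at a probe at base 595, and its probe at base 9615 was too dim to test. GSK3B, a kinase of this complex, differed by -0.35 (adjusted p = 0.308) and AXIN1 by -0.32 (adjusted p = 0.663, and -0.03 without paraoxon C) with paraoxon. GSK3A (0.08), BTRC (0.09) and FAM123B (0.22) lay above 0. Without paraoxon C, GSK3A was at -0.07 and FAM123B at 0.06, and BTRC was at 0.02 without paraoxon A. CSNK1A1 (-0.14), CSNK1D (-0.25), CSNK1E (-0.26 at A_33_P3265180 and -0.06 at A_33_P3265185) and APC2 (-0.08) lay below 0. Without control A, CSNK1D was at -0.02 and APC2 at 0.03. Among the ligands, WNT10B differed by -0.87 (adjusted p = 0.211) and WNT3 by -0.59 (adjusted p = 0.253). Both divided by slide. WNT10B was at -4.79 to -3.94 on slide 1 and -5.55 to -4.99 on slide 2, and WNT3 at -1.65 to -1.16 and -2.13 to -1.68.

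Among inhibitors outside the cell, KREMEN1, a DKK receptor, differed by -1.53 (adjusted p = 0.193) at a probe at base 1330. This probe was well above background on 8 of 9 arrays, with paraoxon C at -8.18, and differed by -0.98 without that array. It divided by slide, with -5.93 to -5.03 on slide 1 and -8.18 to -6.00 on slide 2. KREMEN1 differed by 0.07 (adjusted p = 0.881) at base 5834. WIF1, which binds Wnt ligands, was 0.22 above control with paraoxon and 0.48 with mipafox (unadjusted p = 0.0100). NOTUM, an enzyme that inactivates Wnt ligands, was well above background on 0 arrays. LGR4, an R-spondin receptor, was 0.28 above control (adjusted p = 0.579), and 0.14 without control A. ZNRF3, the close relative of RNF43, differed by -0.13 at base 2812 and 0.22 at base 6061 (adjusted p = 0.927 and 0.856), the former 0.14 without paraoxon B.

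Of the other target genes named in the list, MYC differed by -0.09 and CCND1 by -0.27 with paraoxon, with adjusted p of 0.915 and 0.726. Both turned sign without 1 array, to 0.09 for MYC without paraoxon A and 0.06 for CCND1 without paraoxon C. APCDD1, a membrane inhibitor and target, differed by -0.18 (adjusted p = 0.853), and by 0.09 without control B. CDX1, a homeobox target, differed by -0.52 (adjusted p = 0.225) at A_23_P58788 and by 0.21 (adjusted p = 0.775) at A_33_P3289848, which was 0.04 without control C. TNFRSF19 was well above background on 0 arrays. Of the 9 genes in the list with tested probes at least 1000 bases apart on 1 transcript, 6 (66.7%) had a lower upstream difference with paraoxon. Of all 1803 such pairs, 81.3% did. The 6 ran from KREMEN1 at -1.60 and DKK3 at -1.30 to CTNNBIP1 at -0.21. Without paraoxon C, KREMEN1 was at -1.06 and DKK3 at -0.61. The other 3 (PYGO2, SP8 and TLE4) were above 0, of which PYGO2 and TLE4 turned sign when 1 array was left out.

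**Figure D5:**
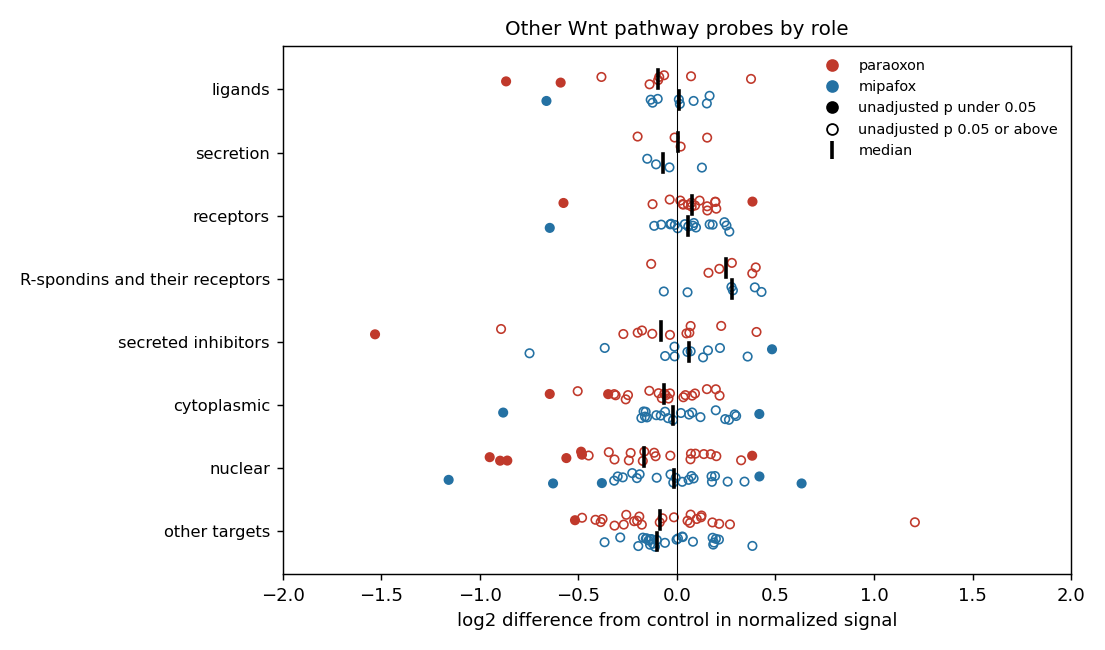
Log2 difference from control (horizontal axis) of the 118 tested probes of the pathway list by role (vertical axis), in red for paraoxon and blue for mipafox, filled where the unadjusted limma p was under 0.05, with a black bar at the median of each group. The nuclear group holds 6 filled paraoxon points below 0 and 1 above it, and the medians of the whole list are -0.04 and 0.00.

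Over the 9 arrays, the genes whose brightest probe followed the downstream AXIN2 probe most closely, among 23752 genes, were ELOVL5 (Pearson r = 0.970), LRIG1 (0.970), SRF (0.969) and IL18 (0.967), together with A_33_P3289144 (0.978), a probe with no gene symbol. Among the readout genes the highest correlation with that probe was 0.62 for LEF1. With the upstream AXIN2 probe, the highest were 0.72 for upstream TCF7, 0.71 for upstream CTNNB1 and 0.70 for SP5, and the lowest was -0.62 for NKD1. These correlations describe 9 arrays that share 2 slides, and no p is given. ELOVL5, LRIG1, SRF, IL18 and A_33_P3289144 were picked as the highest among 23752, so a high r was built into their choice. Shared regulation with AXIN2 was not tested.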

How the data were processed

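Per the labels, the authors read each 1-colour (Cy3) array with Agilent Feature Extraction, version 10.5.1.1, and deposited linear intensity values for every spot. A table of their log2 values was deposited too, with steps only partly stated, and served as an alternative. For the present values, log2 processed signal was scaled by subtracting the 75th percentile of the array, without outlier spots, and repeat spots were averaged. That percentile ran from 802 to 1590, and 65.7% to 73.6% of probes were well above background. A probe was tested if it was well above background on all 3 arrays of a treatment and had 2 or more values in each. Testing was by limma 3.58.1 (R 4.3.3), 1 fit of the 9 arrays, with Benjamini-Hochberg adjustment over all tested probes. Precision was limited by the number of arrays. The labels call the replicates biological and the study's methods technical, so p-values measure only the spread between these arrays. The fit was checked on simulated data. Coordinates follow the array annotation (hg19). Plots were made in matplotlib 3.10.9.

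The 10 genes, the pathway list and the markers were chosen with earlier results of these data known. Named were all probes of the 10 genes, 12 pathway genes fixed by name, up to 10 further list genes with the smallest unadjusted p under 0.05 in either comparison with control, and the 5 genes most correlated with the brightest AXIN2 probe. DKK3, PYGO2, SP8, TLE4, CTNNBIP1, GSK3A, BTRC, FAM123B, CSNK1A1, CSNK1D, CSNK1E and APC2 were named after their values were seen. Members kept every probe, and the ranking by correlation took the brightest probe of a gene. The alternatives were other scaling, background correction and dim-probe filters, the deposited log2 table, slide or replicate letter as a block, fewer arrays, other variance models, array weights and outlier spots kept.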

Additional observations from a re-analysis of the deposited data

How the results depend on the processing

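The upstream AXIN2 probe stayed below control in both comparisons under every alternative run. Its paraoxon difference was -1.003 in the deposited log2 table, -0.93 with normexp and -1.08 with slide as a random block, and -0.12 with slide as a fixed block. Its mipafox difference was -0.78 with normexp, and -0.46 with slide as a fixed block or within slide 1. Leaving out 1 array at a time gave -1.56 to -1.23 and -1.73 to -0.97. Deviations of same-letter arrays from their treatment mean correlated between -0.60 and 0.57. With deviations centred in groups of 3 arrays, these values cannot decide whether the letters pair the arrays. With a replicate block the upstream AXIN2 difference stayed at -1.39 and 0 probes were called.

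The median of the 9 other probes moved to -0.0861 (paraoxon) and -0.187 (mipafox) with array weights, to -0.0443 for mipafox in the deposited table, and between the compounds to -0.076 with normexp and -0.0396 with probes well above background on all arrays. Left-out arrays moved it between -0.077 and 0.0832 there. Probes called for paraoxon numbered 671 with array weights, 276 with only control and paraoxon arrays and 1 with slide as a fixed block. For mipafox they numbered 800 and 6 with weights and the fixed block. With weights 1 member passed for mipafox, NKD1 (0.55, limma adjusted p = 0.0251), as did 12.7% (paraoxon) and 19.5% (mipafox) of the pathway list, beside 13.8% and 19.8% of all tested probes at that p. Leaving out an array gave 0 to 276 calls for paraoxon, 276 without mipafox A, 77 without mipafox B and 1 without mipafox C, and 0 to 76 for mipafox, the latter without mipafox A. The causes were not tested. Dim probes (SP5, DKK1, LGR5) are limited by signal over background.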
